A study of Rattus norvegicus with 6 samples.

Results

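Oprm1 encodes the mu opioid receptor and is 1 of the 25629 genes in the deposited count matrices, where a single row carries its symbol (ENSRNOG00000018191). It was followed across cell classes, across single nuclei within a class, and between rats given saline or naloxone after heroin self-administration. The nuclei came from punches of the nucleus accumbens of Sprague-Dawley rats at postnatal day 90 to 120, 12 rats in all (6 male and 6 female), with tissue of both sexes pooled. Every rat had taken heroin on a fixed ratio of 1 response per infusion for 7 days and of 3 for 4 days, on a progressive ratio on day 12, and again on the ratio of 3 on days 13 and 14. The groups then received saline (libraries 1, 2 and 3) or the opioid antagonist naloxone (libraries 4, 5 and 6) and were killed 1 hour later. Heroin-naive rats were not analysed here, so each level below is a level after heroin. The labels do not tie a library to particular rats, so each p-value measures the spread between libraries.

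The mu receptor couples to inhibitory Gi/o proteins. When an enkephalin, beta-endorphin or an opioid drug binds, it lowers adenylyl cyclase activity, opens inwardly rectifying potassium channels and closes presynaptic calcium channels. Receptor kinases and arrestins then desensitise it, and RGS proteins shorten the G protein signal. In the striatum it is best known from striosomes, patches of spiny projection neurons with dense mu receptor binding, and from cholinergic interneurons. Naloxone is a competitive antagonist at this receptor and, less tightly, at the delta and kappa receptors.

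After filtering, 58960 nuclei remained, 7647 to 13676 per library, with a median of 4210 to 6431 transcripts (unique molecular identifiers, UMIs) per nucleus and 55739350 to 76272798 UMIs per library. The files held 64260 barcodes against 44592 nuclei stated in the labels, and 463 barcode sequences occurred in more than 1 library. Nuclei were clustered, and 17 of 52 clusters could be named from marker lists that do not include Oprm1. Drd1-like and Drd2-like spiny neurons (7647 and 5270 nuclei), Chst9-like neurons (3705), Otof-like neurons (1508), Sst-like interneurons (501), microglia-like cells (1567) and oligodendrocyte-like cells (11712) were named. Their own markers ran high within them: Drd2 reached 569 CPM (counts per 1000000 UMIs of the class in a library) in Drd2-like, Chst9 1523 CPM in Chst9-like, Otof 365 CPM in Otof-like and Csf1r 1109 CPM in microglia-like nuclei. Drd1 itself was sparse, at 31.5 CPM in Drd1-like nuclei and 38.2 CPM in Otof-like nuclei. Drd1-like nuclei were named with Ebf1 (109 CPM) and Isl1 (59.1 CPM), but Ebf1 came from 1 of their 3 clusters, at 308 CPM there and 3.27 and 4.81 CPM in the other 2. The other clusters, closest to the cholinergic and the Drd3 classes, are called by their leading genes: Slc5a7-led (286 nuclei, Slc5a7, the choline transporter, at 614 CPM) and Adamtsl1-led (2005 nuclei, Drd3 at 471 CPM). Drd1, Isl1, Ebf1 and Reln of the Drd1 list summed to 194 to 257 CPM over the Drd1-like libraries, 203 to 327 CPM in Slc5a7-led and 209 to 306 CPM in Adamtsl1-led nuclei. The acetylcholine-synthesising enzyme gene Chat was not analysed here.

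Oprm1 was most abundant in the Chst9-like neurons, at 277 ± 10.9 CPM (SD, n = 6 libraries). In saline replicates 1, 2 and 3 it stood at 278, 265 and 271 CPM, and in naloxone replicates 4, 5 and 6 at 269, 295 and 283 CPM. All 6 libraries lay close together, and the groups overlapped. The Slc5a7-led nuclei followed at 179 ± 25.4 CPM, with 163, 168 and 208 CPM in saline and 162, 157 and 214 CPM in naloxone libraries. Here saline replicate 3 and naloxone replicate 6 stood above the other 4. Microglia-like nuclei held 120 ± 25.0 CPM, with 95.9, 99.7 and 116 CPM after saline and 133, 164 and 112 CPM after naloxone. Otof-like neurons held 76.5 ± 12.6 CPM, with 86.3, 82.5 and 61.2 CPM after saline and 79.7, 89.2 and 60.5 CPM after naloxone. Saline replicate 3 and naloxone replicate 6 were the low libraries of the Otof-like class, and they were the high ones of the Slc5a7-led nuclei.

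**Figure D1:**
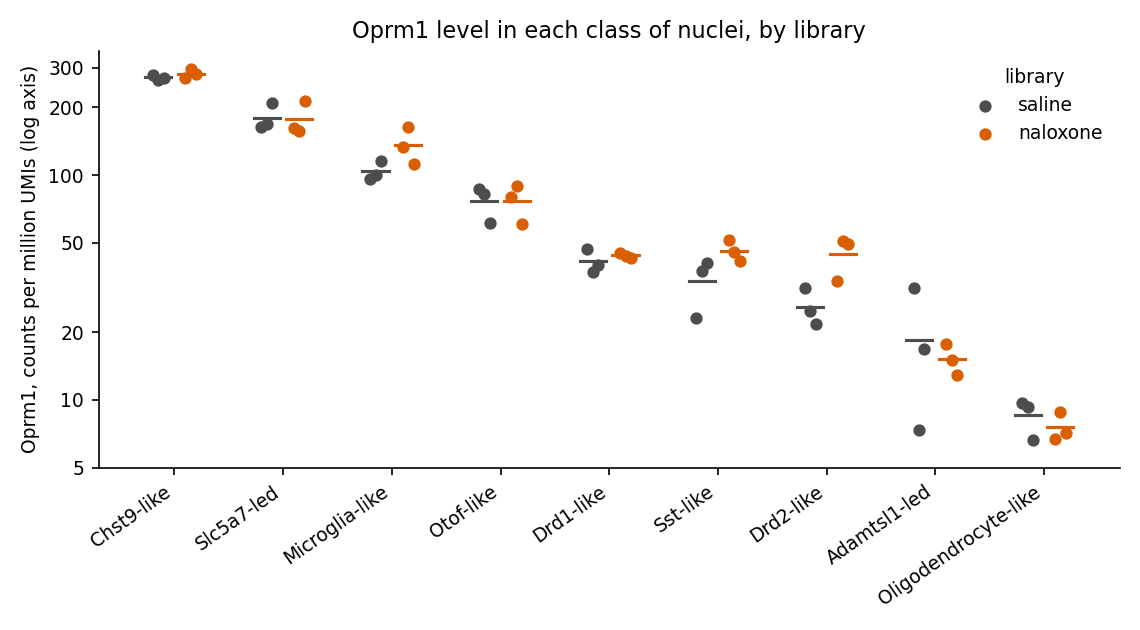
Oprm1 level (CPM, log axis) in each class, with 1 point per library. All 6 points of the Chst9-like class lie between 265 and 295 CPM, above every point of the other classes, and the oligodendrocyte-like points lie between 6.62 and 9.71 CPM.

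The classical spiny neurons were lower. Drd1-like nuclei held 42.6 ± 3.60 CPM, with 47.0, 37.1 and 39.9 CPM after saline and 45.1, 43.8 and 42.9 CPM after naloxone. Drd2-like nuclei held 35.4 ± 12.3 CPM, with every saline library below every naloxone library. Sst-like interneurons, which also make neuropeptide Y and nitric oxide synthase, held 39.99 ± 9.56 CPM. Adamtsl1-led nuclei were lowest among these neurons at 16.9 ± 8.01 CPM, with saline replicate 1 at 31.4 CPM and the other 5 libraries between 7.32 and 17.7 CPM. Oligodendrocyte-like cells, taken as a class that should lack the receptor and so as the level that free RNA can give, held 8.05 ± 1.39 CPM. Precursors of oligodendrocytes (6.76 CPM) and astrocyte-like cells (6.31 CPM) were at a similar level.

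In the order of mean levels, 7 neighbouring pairs were compared by flipping the signs of the 6 per-library differences (an exact permutation test, two-sided), whose smallest possible p is 0.031. Chst9-like exceeded Slc5a7-led nuclei by 98.2 ± 28.6 CPM in 6 of 6 libraries (permutation p = 0.031, adjusted p = 0.0729). Microglia-like exceeded Otof-like nuclei by 43.5 ± 24.8 CPM and Otof-like exceeded Drd1-like nuclei by 33.9 ± 12.0 CPM, each in 6 of 6 libraries with those same p-values. Slc5a7-led nuclei stood above microglia-like ones in 5 of 6 libraries (adjusted permutation p = 0.0875), and Drd2-like above Adamtsl1-led in 5 of 6 (adjusted permutation p = 0.0875). Drd1-like, Sst-like and Drd2-like nuclei could not be ordered: the first pair differed by 2.65 ± 10.7 CPM (permutation p = 0.906) and the second by 4.63 ± 13.2 CPM (permutation p = 0.438). No adjusted p in this family passed 0.05, which 7 pairs allow only when most of them reach the smallest p. Within each library Chst9-like nuclei held 6.53 ± 0.49 times the Drd1-like level, a ratio that ran from 5.93 to 7.16.

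Drd1-like neurons were not uniform. Their 3 clusters are named by their leading genes: 2791 Ebf1-led nuclei held 58.0 ± 8.86 CPM, 3381 Pde11a-led nuclei 43.1 ± 2.69 CPM and 1475 Ust-led nuclei 19.1 ± 2.80 CPM. The lowest Ebf1-led library (46.6 CPM) lay above the highest Ust-led library (22.5 CPM). Ebf1-led over Ust-led was 3.09-fold and Pde11a-led over Ust-led 2.28-fold, both in 6 of 6 libraries (exact sign-flip permutation p = 0.031, the smallest possible). Drd3 was among the leading genes of the Pde11a-led cluster and none of the Drd1 list was. The naloxone result of the Drd1-like class and its named co-detected genes are therefore also given by cluster. The 2 Drd2-like clusters, Drd2-led (34.96 ± 12.3 CPM) and Dach1-led (41.0 ± 17.5 CPM), differed by less than their spread. Among neuronal clusters without a name, Oprm1 ran from 22.3 CPM in a Tafa4-led cluster to 104 CPM in a Slc17a8-led cluster and 102 CPM in a Bnc2-led one.

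Counted per nucleus, 70.5 ± 5.35% of Chst9-like nuclei held at least 1 Oprm1 UMI, against 26.9 ± 5.03% of Drd1-like, 21.6 ± 6.89% of Drd2-like, 14.9 ± 2.95% of microglia-like and 1.37 ± 0.20% of oligodendrocyte-like nuclei (SD, n = 6 libraries). These shares follow depth, since the median nucleus held 12566 UMIs in the Slc5a7-led, 9141 in the Drd1-like, 5759 in the Chst9-like, 1265 in the microglia-like and 1633 in the oligodendrocyte-like class. With every nucleus thinned to 1000 UMIs, the share was 23.4 ± 0.46% in Chst9-like, 15.9 ± 2.55% in Slc5a7-led, 10.3 ± 1.83% in microglia-like and 7.12 ± 1.17% in Otof-like nuclei. It was 4.27 ± 0.39% in Drd1-like, 3.89 ± 1.12% in Sst-like, 3.45 ± 1.10% in Drd2-like, 1.59 ± 0.89% in Adamtsl1-led and 0.784 ± 0.149% in oligodendrocyte-like nuclei. The thinning left out 497 shallower microglia-like nuclei, 211 from saline and 286 from naloxone libraries, and 1867 oligodendrocyte-like nuclei. Unthinned shares put the Slc5a7-led nuclei (70.6 ± 9.77%) level with the Chst9-like ones, whereas the thinned shares and the CPM put them below. In the shallowest Chst9-like nuclei, under 2000 UMIs, 25.9% of 108 nuclei held a UMI, and from 10000 UMIs upwards 87.7% did.

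Transcripts were unevenly spread among nuclei of 1 class. In the Chst9-like class 29.5% of nuclei held none, against 22.0% if each nucleus held its share by depth, 26.2% held 1, 17.3% held 2, 21.9% held 3 to 5 and 5.2% more than 5. Up to 15 UMIs were found in 1 nucleus of this class. The Slc5a7-led nuclei showed a wider gap, with 29.4% empty against 13.4% expected from depth, 15.3% above 5 UMIs and a maximum of 19. Drd1-like nuclei were empty in 73.1% against 64.9% expected, and Drd2-like nuclei in 78.4% against 72.3%. Microglia-like nuclei were close to the value from depth, at 85.1% empty against 84.9% expected, and never held more than 3 UMIs.

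**Figure D2:**
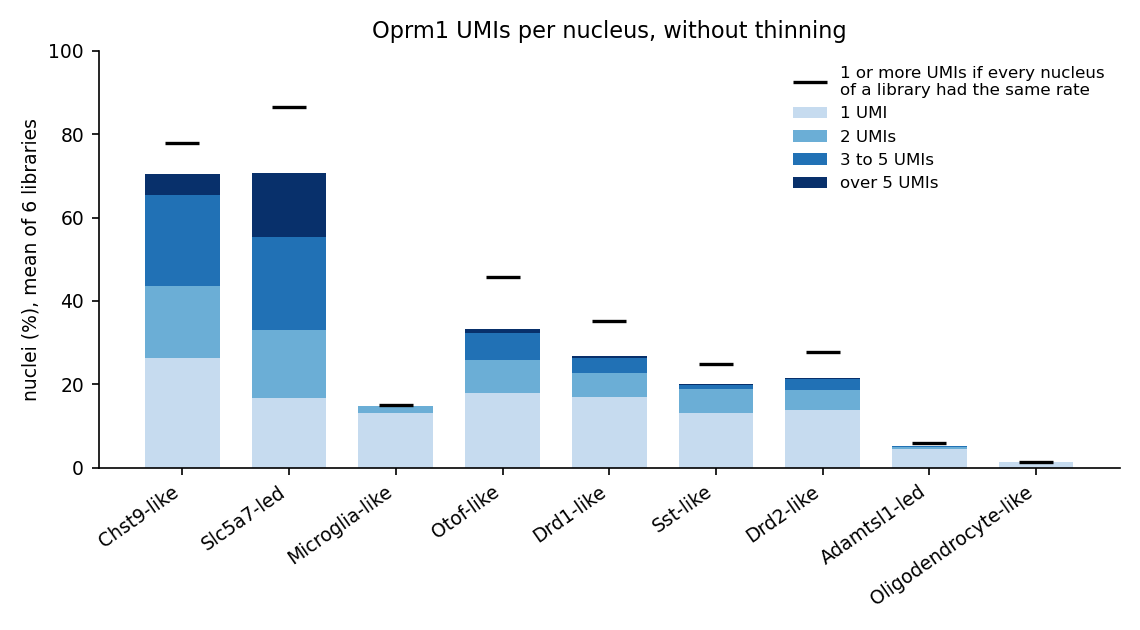
Share of nuclei of each class (mean of 6 libraries, %) by the number of Oprm1 UMIs in the nucleus, without thinning. Nuclei without a UMI make up 29.5% of the Chst9-like class and 73.1% of the Drd1-like class.

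Chst9-like neurons made up 6.28 ± 0.39% of the nuclei and 28.2 ± 0.99% of all Oprm1 UMIs in a library. Across the 6 libraries this share ran from 27.0 to 29.8%. Drd1-like nuclei were 12.9% of the nuclei and carried 14.6 ± 2.04% of the Oprm1 UMIs, and Drd2-like nuclei were 8.87% and carried 7.32 ± 2.06%. The Slc5a7-led nuclei, only 0.493% of all, carried 3.15% of the UMIs, while oligodendrocyte-like nuclei were 20.02% of all and carried 0.762%. Clusters whose markers mixed several classes held 7239 nuclei at 55.3 CPM and 14.5% of the 22608 Oprm1 UMIs, and they enter no class.

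**Figure D3:**
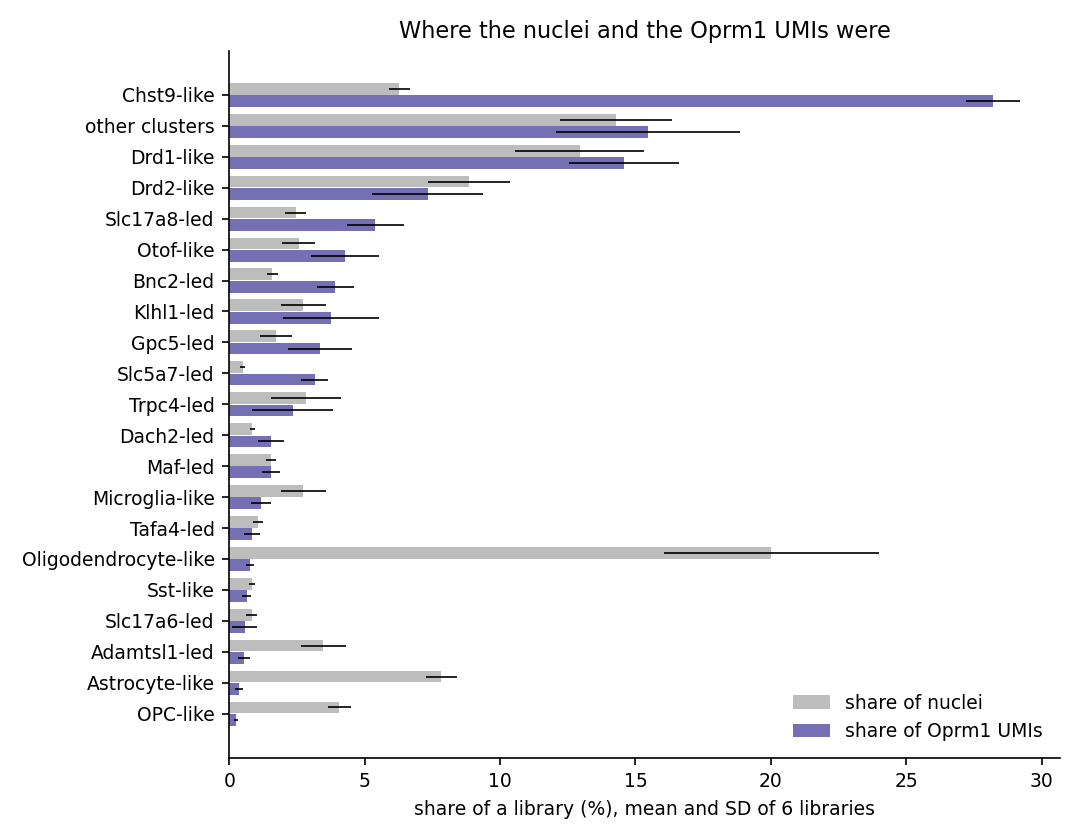
Share of the nuclei and share of the Oprm1 UMIs of a library (%, mean and SD of 6 libraries) in each class. The Chst9-like class holds 6.28% of the nuclei and 28.2% of the Oprm1 UMIs, and the oligodendrocyte-like class 20.02% and 0.762%.

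Within the Chst9-like class Oprm1 followed Chst9, the sulfotransferase gene that names it. Among nuclei with at least 3000 UMIs, Oprm1 stood at 197 ± 29.0 CPM in 398 nuclei without a Chst9 UMI, 254 ± 28.0 CPM in 483 nuclei with 1 to 3, and 294 ± 18.6 CPM in 2440 nuclei with 4 or more. Even the nuclei without Chst9 were above the Drd1-like level. Drd1-like nuclei were binned by UMIs of Grm8, a group III metabotropic glutamate receptor gene that also marks the Chst9-like class. Their Oprm1 stood at 48.4 CPM without a Grm8 UMI and 34.6 CPM with 4 or more. Drd2-like nuclei had Oprm1 at 39.5 CPM without Grm8 and 25.2 CPM with 4 or more. These gradients over raw UMI counts were not tested and not matched for depth. Drd1-like Oprm1 was at 65.3 CPM in nuclei of 2000 to 5000 UMIs and 37.3 CPM from 10000 UMIs upwards. Grm8 also differed by Drd1-like cluster, at 46.5 CPM in Ebf1-led and 379 CPM in Ust-led nuclei. With each nucleus thinned to 3000 UMIs, the Grm8 log2 ratio with over without Oprm1 was called in neither class. It was -0.06 in Drd1-like (edgeR adjusted p = 0.863) and -0.13 in Drd2-like nuclei (0.822). In the Otof-like class, Oprm1 stood at 55.6 CPM in 1109 nuclei of at least 3000 UMIs without a Grm8 UMI. The whole Otof-like class held 76.5 CPM. Its bins with Grm8 UMIs are not reported here.

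In microglia-like nuclei the Oprm1 reads cannot be assigned with certainty. On the rat RefSeq annotation (assembly GRCr8), Oprm1 lies on the plus strand of chromosome 1, and the gene Ipcef1 lies on the minus strand with 81.1% of its span over Oprm1, covering 64.9% of Oprm1. Whether strand was used in counting is not given in the sources used here. It is therefore not known here whether reads of the overlap were counted to the right gene. The submitters' processing notes name another build, on which the overlap was not examined. Ipcef1 stood at 334 ± 18.2 CPM in microglia-like, 69.1 ± 7.54 CPM in Chst9-like, 20.7 ± 4.91 CPM in Drd2-like, 17.8 CPM in Drd1-like and 9.09 CPM in Slc5a7-led nuclei. It stood at 12.8 CPM in Otof-like, 6.17 CPM in Adamtsl1-led and 4.98 CPM in Sst-like nuclei. Of the 8 classes, the microglia-like level of Ipcef1 was thus the highest. The Slc5a7-led level, where Oprm1 was second highest, was above only those of the Adamtsl1-led and Sst-like nuclei. Among microglia-like nuclei thinned to 1000 UMIs, Ipcef1 was at 414 ± 163 CPM in 104 nuclei with Oprm1 and 350 ± 37.7 CPM in 966 without, higher in 4 of 6 libraries. The summed level of neuronal markers was 530 CPM (360 to 767 over libraries) in 240 microglia-like nuclei with Oprm1 and 515 CPM (386 to 669) in 1327 without. The part of overlapping reads, neuronal RNA or receptor transcription in the microglial value was not tested.

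Naloxone was compared with saline in each class by edgeR's quasi-likelihood test on counts summed per library, adjusted over all genes tested in the class. Oprm1 rose in the Drd2-like neurons and was not called in any of the other 7 classes described. Drd2-like nuclei held 31.3, 24.9 and 21.7 CPM in saline replicates 1, 2 and 3 and 33.8, 51.1 and 49.2 CPM in naloxone replicates 4, 5 and 6. The groups did not overlap, but the highest saline and the lowest naloxone library lay close together. The means were 26.0 ± 4.91 and 44.7 ± 9.48 CPM, a 1.72-fold difference (log2 fold change 0.82, SE 0.16, edgeR adjusted p = 0.0457, naloxone higher in 3 of 3 libraries). Genes called at an adjusted p under 0.05 in this class were 62 of 12584, or 0.493%, 44 higher and 18 lower after naloxone. An exact two-sided permutation test of 3 against 3 libraries gave p = 0.1, the smallest it allows. The call depended on single libraries: the edgeR adjusted p was 0.0530 with saline replicate 1 left out, 0.215 with saline replicate 2 left out and 0.205 with saline replicate 3 left out. It was 0.0982 when naloxone replicate 5 was left out and 0.0903 when naloxone replicate 6 was, but 0.00816 when naloxone replicate 4 was.

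The larger Drd2-led cluster alone gave a log2 fold change of 0.81 (SE 0.17, edgeR adjusted p = 0.0546, 0.355% of genes called), and the smaller Dach1-led cluster 1.02 (SE 0.27, edgeR adjusted p = 0.0384, where 3.19% of genes were called). The Dach1-led values were 34.4, 22.8 and 26.4 CPM after saline and 50.1, 70.3 and 42.1 CPM after naloxone, without overlap. The Drd2-led cluster made up 90.3 to 93.3% of the class in saline and 88.9 to 93.6% in naloxone libraries. Thinned to 3000 UMIs, 8.56, 7.01 and 6.28% of Drd2-like nuclei held an Oprm1 UMI in the saline libraries and 8.58, 12.7 and 12.7% in the naloxone libraries. Nuclei with 2 or more UMIs went from 0.682 ± 0.174% to 2.10 ± 0.247%, and those with 3 or more from 0.0611% to 0.397% (exact permutation p = 0.1 each, the smallest possible).

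Markers of other classes in the Drd2-like nuclei were compared as summed levels. The Drd1 list (4 genes) spanned 5.76 to 14.2 CPM after saline and 5.10 to 8.46 CPM after naloxone, and the Chst9 list (3 genes) 322 to 349 and 315 to 340 CPM. The Otof list (3 genes) spanned 89.1 to 115 and 74.1 to 88.4 CPM, and the astrocyte list (6 genes) 533 to 571 and 453 to 535 CPM. In the Drd2-led cluster the Chst9 list was mostly Grm8 (203 CPM) and Foxp2 (133 CPM), with Chst9 at 2.65 CPM. The Otof list there was mostly Otof (82.9 CPM). The Chst9 and Otof sums therefore say little about admixed RNA of those classes. The microglia list (7 genes) spanned 20.6 to 26.2 and 22.4 to 25.5 CPM, and the oligodendrocyte list (7 genes) 85.0 to 126 and 94.1 to 149 CPM. No gene of these lists that could be tested passed the edgeR threshold. The overlapping gene Ipcef1 stood at 17.1 CPM after saline and 24.3 CPM after naloxone in Drd2-like nuclei (log2 fold change 0.54, SE 0.15, edgeR adjusted p = 0.138). Its part in the Oprm1 difference was not tested.

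**Figure D4:**
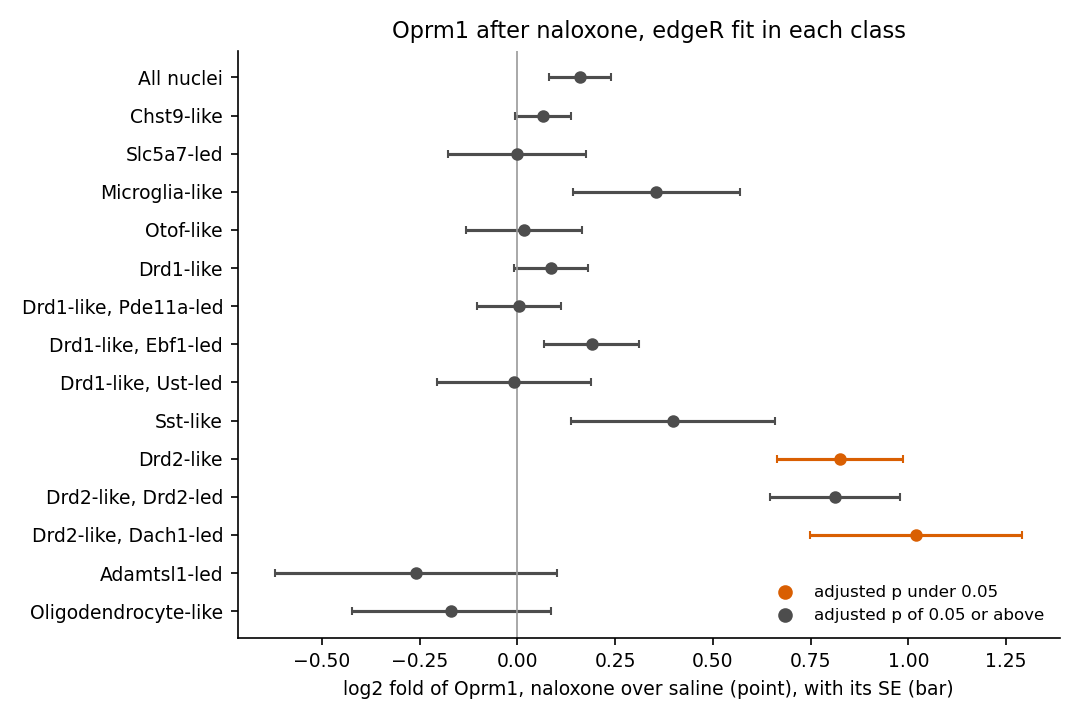
log2 fold change of Oprm1 after naloxone over saline (point) with its standard error (bar) from the edgeR fit of each class. The Drd2-like point stands at 0.82, and the Drd1-like and Chst9-like points at 0.09 and 0.07.

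In Drd1-like nuclei the log2 fold change was 0.09 (SE 0.09, edgeR adjusted p = 0.737, 0.17% of genes called), and in Chst9-like nuclei 0.07 (SE 0.07, edgeR adjusted p = 0.824, 0.13% called). The Drd1-like clusters gave 0.19 (Ebf1-led, 0.122% of genes called), 0.005 (Pde11a-led, 0.0828%) and -0.01 (Ust-led, 0.256%), none with Oprm1 called. The difference between classes was itself tested with library as a block. The change was larger in Drd2-like than in Drd1-like nuclei by 0.76 on the log2 scale (SE 0.13, edgeR adjusted p = 0.00145, 1.29% of genes called), and larger than in Chst9-like nuclei by 0.77 (SE 0.12, edgeR adjusted p = 0.00364, 0.328% called). Against the single Drd1-like clusters the difference was 0.86 (Pde11a-led, edgeR adjusted p = 0.00368), 0.63 (Ebf1-led, 0.0184) and 0.90 (Ust-led, 0.0399). Without naloxone replicate 5 the difference from Drd1-like nuclei was 0.64 with an edgeR adjusted p of 0.0507. In thinned nuclei the share with an Oprm1 UMI was 51.3% after saline and 52.6% after naloxone in the Chst9-like class, and 11.01% and 11.6% in the Drd1-like class.

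Elsewhere the spread was wider. Sst-like interneurons stood at 23.1, 37.6 and 40.8 CPM after saline and 51.5, 45.3 and 41.6 CPM after naloxone, without overlap, but the edgeR fit gave 0.40 (SE 0.26, adjusted p = 0.843, 0.0139% of genes called). The microglia-like class gave 0.36 (SE 0.21, edgeR adjusted p = 0.724, 0.391% called), with naloxone replicate 6 inside the saline range. Otof-like (0.02, SE 0.15), Slc5a7-led (-0.001, SE 0.18) and Adamtsl1-led nuclei (-0.26, SE 0.36) had edgeR adjusted p-values of 0.921 or more, with 0.0298% of genes called in the first and 0% in the other 2. In those 2 classes edgeR gave 370 of 7111 and 661 of 8994 genes at an unadjusted p under 0.05, and DESeq2 also called 0. With all nuclei pooled, Oprm1 stood at 57.1 ± 2.57 CPM after saline and 64.2 ± 5.87 CPM after naloxone (log2 fold change 0.16, SE 0.08, edgeR adjusted p = 0.393, 0.0806% of genes called).

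The other genes of the opioid pathway were read from 6 lists with 45 members. After naloxone, edgeR called 1 of 40 tested members in Drd2-like nuclei and 0 of 20 to 41 tested in the other 7 classes, with 0.493% of all genes called in the Drd2-like class. At an unadjusted p under 0.05 there were 12 of 40 members in Drd2-like nuclei, where 1692 of all 12584 genes were. The other classes had 0 of 20 (microglia-like, 490 of all 6142 genes) to 6 of 41 (Drd1-like, 1739 of all 13537 genes). DESeq2 called 2 members in Drd2-like nuclei (Gng2 and Oprk1, of 153 genes called in all) and 1 in Drd1-like nuclei (Gng2, of 99). It called 0 members in the other 6 classes, where it called 0 (Slc5a7-led) to 27 (microglia-like) genes in all. The gene called by edgeR was Gng2, a G protein gamma subunit, at 12.4 CPM after saline and 39.6 CPM after naloxone (log2 fold change 1.70, SE 0.12, edgeR adjusted p = 1.64e-05). In Drd1-like nuclei Gng2 stood at 13.1 and 25.0 CPM (0.92, SE 0.16, edgeR adjusted p = 0.0528). The median log2 fold change of the 40 members in Drd2-like nuclei was -0.03, against 0.002 over all genes tested, and -0.07 in Drd1-like and -0.05 in Chst9-like nuclei, against 0.006 and -0.0005. Among the receptors, Oprd1 (delta) was at 72.7 ± 6.84 CPM in Drd2-like and 11.8 ± 2.41 CPM in Drd1-like nuclei, and Oprk1 (kappa) at 44.8 ± 7.98 CPM in Otof-like and 33.5 ± 2.35 CPM in Drd1-like nuclei. Neither was high in the Chst9-like class, where Oprd1 was at 4.27 ± 1.03 CPM and Oprk1 at 18.9 ± 2.60 CPM. Of the ligand genes, Penk (enkephalin precursor) was at 129 ± 25.9 CPM in Drd2-like and 84.9 ± 17.6 CPM in Chst9-like nuclei, and Pdyn (dynorphin precursor) at 23.1 ± 2.78 CPM in Drd1-like nuclei. Penk was at 163 ± 51.8 CPM in microglia-like nuclei, where its source was not tested.

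Channels and regulators that act with the receptor also differed among classes. Kcnj3, which encodes the potassium channel subunit GIRK1, was at 681 ± 59.3 CPM in Chst9-like, 524 ± 41.5 CPM in Adamtsl1-led, 382 ± 88.8 CPM in Slc5a7-led, 52.2 ± 9.20 CPM in Drd1-like and 63.6 ± 9.89 CPM in Drd2-like nuclei. Kcnj6 (GIRK2) was at 166 ± 13.1 CPM in Chst9-like and 335 ± 39.1 CPM in Adamtsl1-led nuclei, but at 3.62 ± 1.07 CPM in Drd1-like and 1.15 ± 0.43 CPM in Drd2-like nuclei. Rgs9, a striatal brake on G protein signals, had the reverse pattern, with 334 ± 37.1 CPM in Chst9-like, 847 ± 109 CPM in Drd1-like and 981 ± 133 CPM in Drd2-like nuclei. Adcy5, the main striatal adenylyl cyclase, was at 212 ± 13.7 CPM in Chst9-like and 596 ± 24.0 CPM in Drd1-like nuclei. Arrb2, an arrestin gene, was at 93.1 ± 18.3 CPM in microglia-like and 7.35 ± 0.92 CPM in Chst9-like nuclei.

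By Pearson correlation of log2(CPM + 1) over the means of 20 classes, the genes whose class pattern was most like that of Oprm1, of 12304 compared, were Ankrd42 (r = 0.86), Camk1 (0.77), Cchcr1 (0.77), Cpne6 (0.76), Mfsd13a (0.76), Pck2 (0.76), Csnk1g1 (0.76), Sdad1 (0.76), Cd46 (0.75) and the overlapping Ipcef1 (0.75). The points share libraries and differ in depth, so the values only describe. None of the 10 is a class marker. Grm8 (r = 0.55) and Chst9 (r = 0.31), which mark the class with the most Oprm1, were further down.

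Within a class, nuclei with and without an Oprm1 UMI were compared after thinning each nucleus to 3000 UMIs, with library as a block in the edgeR fit. In the Chst9-like class 1723 nuclei held Oprm1 and 1598 did not, and 139 of 8837 genes (1.57%) were called, 54 higher and 85 lower with Oprm1. In Drd1-like nuclei (862 against 6670) 325 of 10360 (3.14%) were called, 130 higher and 195 lower. Drd2-like nuclei (466 against 4680) gave 117 of 9189 (1.27%), 51 higher and 66 lower, and Otof-like nuclei (242 against 1211) gave 110 of 5676 (1.94%), 54 higher and 56 lower. Slc5a7-led nuclei (108 against 175) gave 35 of 1558 (2.25%), a count that fell to 12 with saline replicate 2 left out, to 9 with saline replicate 3 left out and to 18 when naloxone replicate 4 was. The Otof-like count fell to 56 without saline replicate 2. Adamtsl1-led, Sst-like and microglia-like nuclei had too few nuclei with Oprm1 to be tested.

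In Chst9-like nuclei the genes higher with Oprm1 differed little in size. Mdfic, a gene of the Otof marker list, was at 118 ± 27.5 CPM with and 87.3 ± 12.2 CPM without Oprm1 (log2 ratio 0.45, edgeR adjusted p = 0.000781), and Scube2 at 97.4 and 73.5 CPM (0.42, adjusted p = 0.0046). Tmem87a (0.53), Bicra (0.50), Lhfpl6 (0.39) and Stmn2 (0.30), a regulator of microtubules, were also higher in 6 of 6 libraries. Otof, of the same marker list as Mdfic, had the opposite sign and was not called. It was at 153 CPM with and 179 CPM without Oprm1 (-0.21, edgeR adjusted p = 0.191). The genes lower with Oprm1 differed more. Tafa2, a secreted chemokine-like protein gene, was at 53.9 ± 12.0 CPM with and 131 ± 27.3 CPM without Oprm1 (-1.24, edgeR adjusted p = 1.4e-23). Htr2c, the serotonin 2C receptor gene, was at 98.0 ± 20.5 and 208 ± 42.3 CPM (-1.06, edgeR adjusted p = 6.27e-26), and Cntnap5bl1 (-1.17) and Slit3 (-0.90) were lower as well. All 4 were lower in 6 of 6 libraries.

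In Otof-like nuclei the difference was led by Grm8, at 337 ± 69.2 CPM with and 109 ± 37.6 CPM without Oprm1 (log2 ratio 1.59, edgeR adjusted p = 1.58e-27). Sema3e, a secreted axon guidance cue, was at 482 ± 96.0 and 208 ± 24.9 CPM (1.22, edgeR adjusted p = 4.06e-23), and Pde1a, a calmodulin-dependent phosphodiesterase, at 1015 and 486 CPM (1.08). Serpine2 (1.37), Ankfn1 (1.09) and Nub1 (1.06) were higher too. Pde1c, of the same phosphodiesterase family, was lower, at 56.4 ± 28.5 and 152 ± 27.7 CPM (-1.34, edgeR adjusted p = 2.44e-07), with Tspan9 (-1.53), Tafa2 (-1.46) and Cdh13 (-1.41). Of the genes called higher in the Chst9-like and in the Otof-like class, 16 were shared (29.6% of each list), and 27 lower genes were shared (31.8% of the Chst9-like and 48.2% of the Otof-like list).

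In Drd1-like nuclei receptor genes stood among the higher ones. Hcrtr2, an orexin receptor gene, was at 97.1 ± 24.0 CPM with and 42.6 ± 5.62 CPM without Oprm1 (log2 ratio 1.16, edgeR adjusted p = 1.31e-14), and was also higher in the Pde11a-led (0.88) and Ebf1-led (1.14) clusters alone. Trhr, the thyrotropin-releasing hormone receptor gene, was at 40.7 ± 14.4 and 14.1 ± 3.72 CPM (1.49, edgeR adjusted p = 2.26e-10). Calcr, the calcitonin receptor gene, was at 36.6 ± 33.4 and 10.4 ± 5.55 CPM (1.68, edgeR adjusted p = 1.47e-10), and gave 0.68 (adjusted p = 0.632) in the saline and 2.21 (adjusted p = 3.88e-06) in the naloxone libraries alone, a difference that was not tested. Chd7 (1.19), Plcz1 (1.18) and the overlapping Ipcef1 (41.8 ± 18.7 against 16.05 ± 3.05 CPM, 1.25) completed the higher set. Lower were Calb1, the calbindin gene of the matrix list, at 18.0 ± 8.10 and 36.7 ± 11.8 CPM (-1.09, edgeR adjusted p = 3.8e-05), Hs3st5 (-0.95), Cux2 (-0.94) and Hs6st3 (-1.22). Apart from Hcrtr2, none of these genes was called in the Pde11a-led cluster alone. There Calcr gave 0.62 (edgeR adjusted p = 0.969), Trhr 0.70 (0.763), Ipcef1 0.81 (0.465), Plcz1 0.87 (0.0819) and Hs3st5 -0.03 (0.996), and Chd7 and Calb1 were not tested. In the Ebf1-led cluster Trhr (1.72), Plcz1 (1.6), Chd7 (1.55), Ipcef1 (1.15) and Calcr (0.97) were called higher, and Hs3st5 (-2.12) and Calb1 (-0.90) lower. Cux2 was called in neither (-0.44 in Pde11a-led, edgeR adjusted p = 0.909, and -0.34 in Ebf1-led, 0.854). Hs6st3 had log2 ratios of the opposite sign that were not called, 0.11 in Pde11a-led and 0.20 in Ebf1-led nuclei. The Pde11a-led cluster alone gave 26 called genes of 8172 (0.318%), and the Ebf1-led cluster 296 of 7606 (3.89%). By group over the whole class, Calb1 gave -1.51 (edgeR adjusted p = 1.11e-05) in saline and -0.55 (0.602) in naloxone libraries. Ipcef1 gave 0.75 (edgeR adjusted p = 0.264) and 1.66 (0.000506). These differences between groups were not tested.

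In Drd2-like nuclei Hcrtr2 was again higher, at 80.5 ± 27.2 CPM with and 39.1 ± 10.7 CPM without Oprm1 (log2 ratio 0.96, edgeR adjusted p = 2.67e-05). Grik1, a kainate receptor gene, was at 169 ± 61.4 and 96.1 ± 21.9 CPM (0.77, edgeR adjusted p = 1.02e-06), with Insyn2a (0.85), Gramd1c (0.82) and Slit1 (0.76). Camk1g, a calmodulin-dependent kinase gene, was higher with Oprm1 (0.90, edgeR adjusted p = 0.00623) and also rose after naloxone in this class (1.22, SE 0.13, edgeR adjusted p = 0.000977), as Oprm1 did. Within the Drd2-led cluster the ratio with over without Oprm1 was 0.51 (edgeR adjusted p = 0.468). Otof was lower, at 44.996 ± 20.3 and 78.7 ± 16.4 CPM (-0.90, edgeR adjusted p = 0.000603), with Tmem196 (-1.13), Sash1 (-0.87) and Erbb4 (-0.79). Within the Drd2-led cluster Slit1 (0.16, edgeR adjusted p = 0.901), Tmem196 (-0.68, 0.216) and Erbb4 (-0.37, 0.116) were not called, while Hcrtr2 (0.67), Insyn2a (1.01), Gramd1c (0.74), Grik1 (0.76), Otof (-1.23) and Sash1 (-0.71) were. The Drd2-led cluster alone gave 206 called genes of 9015 (2.29%). Drd1-like and Drd2-like nuclei shared 21 higher genes (16.2% and 41.2% of their lists) and 43 lower genes (22.1% and 65.2%).

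Several of these genes went in opposite directions in different classes. Calcr was higher with Oprm1 in Drd1-like nuclei but lower in Chst9-like nuclei (9.6 against 25.0 CPM, log2 ratio -1.31, edgeR adjusted p = 3.05e-05). Htr2c was lower with Oprm1 in Chst9-like nuclei and higher in Drd1-like nuclei (0.63). Pde1c was higher in Drd1-like (0.52) and Drd2-like nuclei (0.56) and lower in Chst9-like (-0.88) and Otof-like nuclei (-1.34), and Erbb4, a neuregulin receptor gene, showed the reverse (0.19 and 0.34 in Chst9-like and Otof-like, -0.49 and -0.79 in Drd1-like and Drd2-like nuclei). Tafa2 was lower with Oprm1 in all 4. Each of these was called in its class, while the difference between classes was not tested. Pde1c was also a leading gene of the Ebf1-led cluster, the Drd1-like cluster with the most Oprm1. Values of Htr2c, Pde1c, Erbb4 and Tafa2 within the Drd1-like clusters are not reported here. Within the Drd2-led cluster Erbb4 was not called (-0.37, edgeR adjusted p = 0.116). In Slc5a7-led nuclei Il1rapl2 was at 6061 and 3136 CPM (1.05, edgeR adjusted p = 2.63e-05), with Pdzrn4 (1.09), Cadps2 (0.92), Ebf4 (0.78), Tmcc3 (0.72) and the guidance receptor gene Robo1 (0.69) higher. Plcb1, a phospholipase C gene, was at 171 ± 77.1 and 547 ± 364 CPM (-1.62, edgeR adjusted p = 5.93e-06), and Thsd7a (-1.46) was lower.

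**Figure D5:**
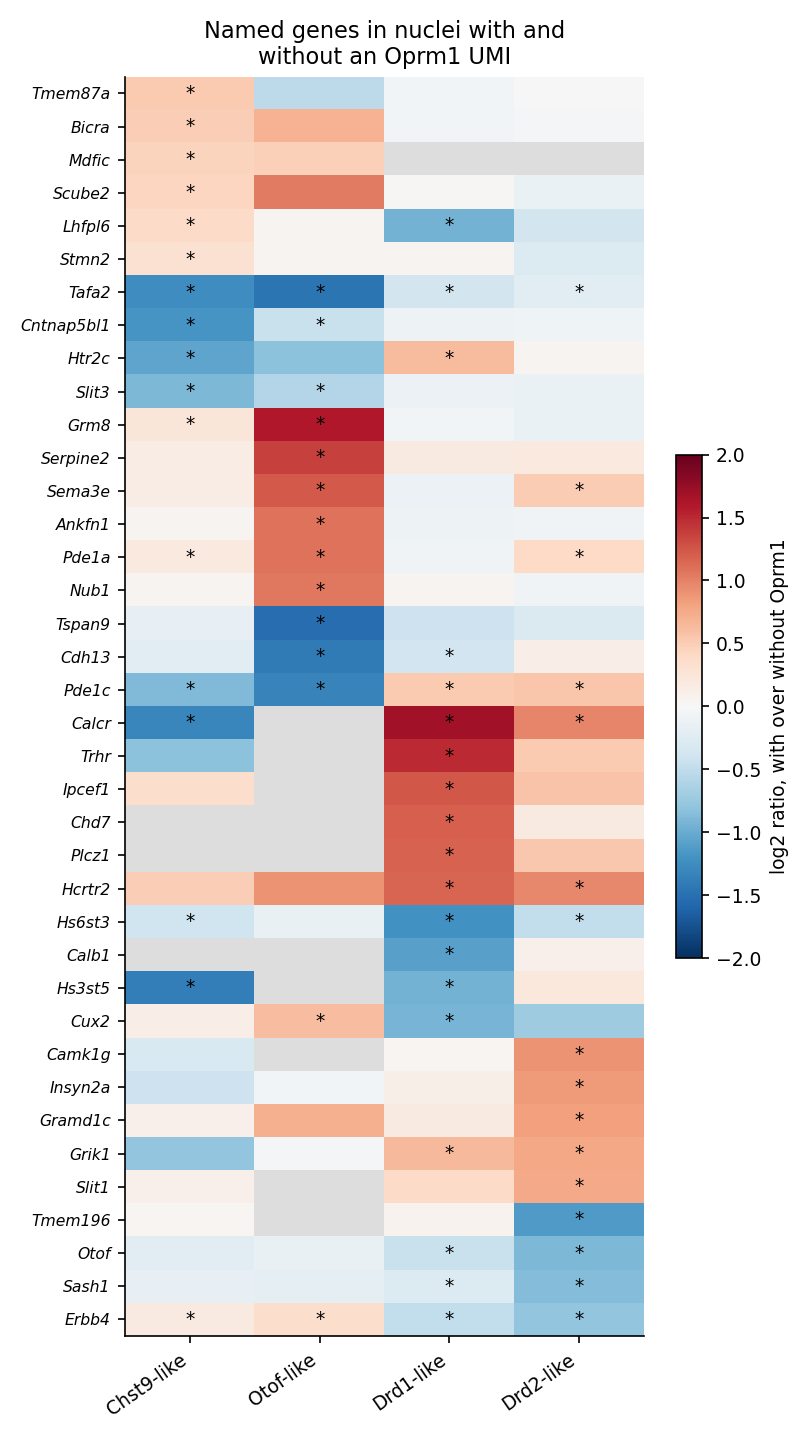
log2 ratio, with over without an Oprm1 UMI after thinning, of the genes named in the Chst9-like, Otof-like, Drd1-like and Drd2-like classes, with a colour for the ratio, grey where a gene was not tested and a star where it was called. Tafa2 is below 0 in the Chst9-like (-1.24) and Otof-like (-1.46) classes, and Hcrtr2 is above 0 in the Drd1-like (1.16) and Drd2-like (0.96) classes.

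The 45 pathway genes were also read between nuclei with and without Oprm1. Kcnj3 was higher with Oprm1 in Chst9-like nuclei (log2 ratio 0.17, edgeR adjusted p = 0.00562), the only called member of 34 tested there (1.57% of all genes called), and in Otof-like nuclei (0.61, edgeR adjusted p = 0.00185), where 1 of 25 was higher and 1 lower (1.94% of all genes called). Rgs9 was lower with Oprm1 in Otof-like (-0.29), Drd1-like (-0.38) and Drd2-like nuclei (-0.47), the only member of 32 called in the Drd2-like class (1.27% of all genes called). In Drd1-like nuclei 4 of 38 were called, against 3.14% of all genes: Gng2 (1.10) and Rgs17 (0.27) were higher, and Rgs7 (-0.38) and Rgs9 lower. Values of these 4 within the Drd1-like clusters are not reported here. DESeq2 called Gng2, Rgs7 and Rgs9 in Drd1-like, Kcnj3 in Otof-like and Rgs9 in Drd2-like nuclei, but not Rgs17 in Drd1-like, Rgs9 in Otof-like or Kcnj3 in Chst9-like nuclei. In Slc5a7-led nuclei edgeR and DESeq2 called 0 of 13, where they called 35 and 8 of all 1558 genes. At an unadjusted p under 0.05 there was 1 of the 13, against 180 of all 1558 genes. The median log2 ratio of the tested members was -0.06 in Drd1-like and 0.01 in Chst9-like nuclei, against 0.005 and 0.004 over all genes. Of the striosome list, both tools called 0 of 6 tested members in Drd1-like and 0 of 4 in Chst9-like nuclei. Each class had 1 member at an unadjusted p under 0.05, where 1175 of all 10360 and 820 of all 8837 genes were. The list medians were 0.15 and 0.05. In Drd2-like nuclei Bach2, a transcription factor gene of that list, was higher with Oprm1 (0.53) and Kremen1 lower (-0.83), and in Otof-like nuclei Bach2 was higher (0.72). DESeq2 called Bach2 in the Otof-like class but neither gene in the Drd2-like class. Bach2 also rose after naloxone in Drd2-like nuclei (log2 fold change 0.81, edgeR adjusted p = 0.00211). Of the matrix list, edgeR called 1 of 5 tested members in Drd1-like nuclei (Calb1, lower) against 3.14% of all genes. In Chst9-like nuclei it called 1 of 3 (Gda, lower, -0.82, not called by DESeq2) against 1.57%. The matrix list medians were -0.14 and 0.04. After naloxone in Drd2-like nuclei, 1 of 5 tested matrix members was called, against 0.493% of all genes. It was Sv2b, a synaptic vesicle gene, which fell (-0.58, edgeR adjusted p = 0.0484).

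Each library pooled the sexes, so single nuclei were called female or male from Xist and Y-linked UMIs. Oprm1 was at 281 CPM in female and 276 CPM in male Chst9-like nuclei, 40.1 and 46.7 CPM in Drd1-like nuclei, and 34.1 and 37.7 CPM in Drd2-like nuclei. The Drd1-like log2 ratio of female over male was -0.22 (SE 0.10, edgeR adjusted p = 0.915, 0.0874% of genes called), and Oprm1 was called in none of the 5 classes tested. The share of genes called was 0.0933% in Chst9-like, 0.0761% in Drd2-like, 0.0776% in Otof-like and 0.139% in Adamtsl1-led nuclei. In Drd2-like nuclei the male values were 32.1, 29.0 and 22.1 CPM after saline and 27.4, 49.9 and 65.9 CPM after naloxone. The female values were 33.4, 22.5 and 21.1 CPM after saline and 46.3, 49.4 and 32.2 CPM after naloxone. Split by sex the groups overlapped, through naloxone replicate 4 in males and naloxone replicate 6 in females.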

How the data were processed

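The deposited matrices hold UMI counts per gene and nucleus from single-nucleus 10x libraries (about 23000 reads per nucleus per the labels). The authors' counts come with Cell Ranger 9.0.1, Seurat 5.2.1, R 4.4.0 and the build mRatBN7.2 per the submitters' processing notes, which give no roles. Intron and strand settings are not given in the sources used here. Filters (500 or more genes, 5% or less mitochondrial UMIs) left 61609 nuclei, 2649 called doublets were removed by simulated neighbours, and the rest were clustered (3000 variable genes, 40 components, 15 neighbours, leidenalg 0.10.2, resolution 1). Classes are clusters named by the marker lists, since gates on single-nucleus UMI counts, planned first, kept few nuclei. Those gates are alternatives. Oprm1, the classes and the lists were chosen with earlier results of these data known.

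CPM is the class's Oprm1 UMIs over its total UMIs in a library. Counts were summed per library and class (at least 20 nuclei in each library) and tested with edgeR 4.0.16 (TMM, low-count filter, quasi-likelihood, Benjamini-Hochberg over all genes tested, threshold 0.05) in R 4.3.3, with Python 3.11.15 for the rest. DESeq2 1.42.0 was an alternative. Scripts were tested on simulated data. Nuclei with and without Oprm1 were thinned to 3000 UMIs (microglia 1000), with at least 10 nuclei of each kind per library. Named co-detected genes were the 6 highest and 4 lowest log2 ratios among called genes with a mean of at least 20 CPM and 1 sign in 6 of 6 libraries. Some of the lower genes in Slc5a7-led nuclei are not reported here. Named pattern genes were the 10 with the highest r among genes with at least 10 CPM in a class. Genome positions were used only for which genes overlap. Chat, Slc18a3 and Tac1 were not analysed here.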

Additional observations from a re-analysis of the deposited data

Results flagged for a closer look

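The change of Oprm1 after naloxone differed between classes by a test of the difference itself. It was larger in Drd2-like than in Drd1-like nuclei by 0.76 on the log2 scale, and larger in Drd2-like than in Chst9-like nuclei by 0.77. No library stood apart from its class by Dixon's criterion in the 8 classes described.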

How the results depend on the processing

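No paired analysis was possible because the saline libraries carry the numbers 1 to 3 and the naloxone libraries 4 to 6, with none in common. In Drd2-like nuclei Oprm1 was higher after naloxone under all 17 alternatives run, and 8 passed an adjusted p of 0.05. Leaving out 1 library gave log2 fold changes of 0.70 to 0.98, the Drd2-led cluster alone 0.81, and gates on UMI counts 0.76 (as first planned), 0.82 (stricter) and 0.72 (looser), with adjusted p-values of 0.147, 0.292 and 0.119. DESeq2 gave an adjusted p of 0.000536. The difference from Drd1-like nuclei ran from 0.64 to 0.92 without 1 library, and the difference from Chst9-like nuclei was 0.67 with the stricter gate (adjusted p = 0.268). Why these calls were lost was not tested.

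Directions turned in several results that were not called. Slc5a7-led nuclei gave 6.08e-05 with RLE factors, 0.0079 without a low-count filter, and -0.20 to 0.12 without 1 library. Otof-like nuclei gave -0.0074 without that filter, -0.19 with the stricter gate, and -0.13 to 0.16 without 1 library. Drd1-like nuclei gave -0.075 with the looser gate and -0.0092 in the Ust-led cluster, and Adamtsl1-led nuclei -0.58 to 0.23 without 1 library. Female over male ran from -0.021 to 0.091 (Chst9-like), -0.17 to 0.076 (Otof-like) and -0.31 to 0.062 (Drd2-like) without 1 library. The Drd1-like minus Sst-like level ran from -1.60 to 4.46 CPM without 1 library.

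Levels moved with the gates: Chst9-like 240 CPM (first), 217 (looser) and 263 (stricter), microglia-like 94.0 (stricter), Otof-like 63.0 (first) and 61.0 (stricter), Drd1-like 54.6 (looser), Sst-like 51.8 (looser), Adamtsl1-led 28.5 (first) and 34.9 (looser). Without nuclei holding a Grm8 UMI, Drd1-like was at 48.4 CPM. Then 5 of the 7 neighbour differences passed (adjusted permutation p = 0.04375), at 98.2, 43.5, 28.1, 8.43 and 22.7 CPM from the top of the order down. Those of 98.2 and 43.5 CPM were unchanged from the main order, where their adjusted permutation p was 0.0729. Their adjusted p fell only because more of the 7 pairs reached the smallest possible p.

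Counts of genes co-detected with Oprm1 depended on the settings. DESeq2 gave 57 (Chst9-like), 8 (Slc5a7-led), 49 (Otof-like), 164 (Drd1-like) and 74 (Drd2-like). Thinning to 2000 UMIs gave 79 (Chst9-like), 59 (Otof-like) and 191 (Drd1-like). The saline libraries alone gave 61 (Chst9-like), 147 (Drd1-like) and 35 (Drd2-like), and the naloxone libraries alone 46, 135 and 46, with fewer libraries in each fit. The Pde11a-led cluster gave 26 and the Drd2-led cluster 206. No low-count filter gave 207 in Drd2-like nuclei. Leaving out nuclei with Xist and Y-linked UMIs gave 5 in Slc5a7-led nuclei. Leaving out 1 library gave 9 to 49 (Slc5a7-led) and 56 to 109 (Otof-like). Over all genes, naloxone calls in Drd2-like nuclei ran from 5 (stricter gate) to 502 (no filter), and in Drd1-like nuclei from 0 (without saline replicate 1) to 257 (no filter). Thinning to 2000 UMIs was not run for Slc5a7-led nuclei, and gates gave no value for classes left with under 20 nuclei in a library. Depth limits the thin classes: Adamtsl1-led, Sst-like and microglia-like nuclei rest on 118, 147 and 269 Oprm1 UMIs.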
